A study of Homo sapiens with 22 samples.

Results

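The 500 largest clusters of distal H3K4me2 regions in NCI-H660 cells are described here, with the transcription factor and accessibility regions they held. NCI-H660 is a human prostate cancer cell line of the neuroendocrine type. The vehicle H3K4me2 list held 70388 regions, of which 46149 (65.6%) lay more than 2 kb from the start of every protein-coding gene. Distal regions separated by at most 12.5 kb were joined into 29878 clusters, and the 500 with the largest summed region width were taken. The clusters were thus selected on H3K4me2 region width, so their widths and region numbers are a description and were not tested. They held 3068 H3K4me2 regions, which made up 6.65% of the distal regions and 8.38% of the distal width.

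H3K4me2, dimethylation of lysine 4 of histone H3, marks enhancers and promoters, and long stretches of closely spaced marked regions are often found around genes that set cell identity. FOXA2 is a pioneer factor of the forkhead family that can bind its motif in closed chromatin and is active in endoderm and in neuroendocrine tumors. JUN is a subunit of the dimeric factor AP-1, which binds open enhancers, and LSD1 (KDM1A) is the demethylase that removes methyl groups from H3K4me1 and H3K4me2.

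The series held 22 lists of called regions, 1 for each ChIP-seq or ATAC-seq library, from NCI-H660, PC3 and LNCaP prostate cancer cells. In NCI-H660 the lists were H3K4me2, ATAC and FOXA2 from vehicle cells, FOXA2 from cells given 10 µM ORY-1001 (an LSD1 inhibitor) for 4 h, and JUN from cells given a negative control siRNA (siNC) or an siRNA against FOXA2 (siFOXA2). PC3, an androgen receptor-negative line without the neuroendocrine phenotype, gave the vehicle ATAC, H3K27ac and FOXA2 lists and the siNC JUN list used here. Each condition compared here had 1 list, so no difference between conditions has a replicate check and no p-value is given. For PC3 FOXA2 there were 2 further vehicle lists, of 77822 and 62714 regions against 24038, whose labels name no antibody, and their values are given where the PC3 FOXA2 list is used. The remaining PC3 and LNCaP lists serve below only to define regions shared across lists. They were PC3 FOXA2 under ORY-1001 or C12 (another LSD1 inhibitor), PC3 FOSL1 under siNC, and PC3 JUN and FOSL1 under siFOXA2. From LNCaP came JUN under siNC or an siRNA against FOXA1, and FOXA2 and JUN from cells overexpressing FOXA2. A last LNCaP JUN list came from cells with the FOXA2 mutant K265R. The H3K4me2 list is from vehicle cells, so all changes below are in FOXA2 or JUN regions inside a fixed set of H3K4me2 clusters. Read depth is unknown, so intervals (95%) cover counting error in the numbers of regions only. Regions of 1 cluster, and neighbouring clusters, are not independent of each other.

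As a check of the labelled cell type, H3K4me2 and ATAC regions were present within 10 kb of all 10 neuroendocrine marker genes examined, with 46 H3K4me2 regions in all. All 7 luminal marker genes also had H3K4me2 (10 regions in all), and so did 4 of 6 basal or mesenchymal genes, KRT5 and KRT14 being without it. PC3 ATAC regions lay near all 10 neuroendocrine genes too, so presence alone does not separate the lines. The NCI-H660 JUN list under siFOXA2 was far longer than its siNC control (59452 against 18401 regions), and the FOXA2 lists were of similar length (11886 in vehicle, 11469 under ORY-1001).

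The following 8 sequences, each the 200 bases centred on a listed region, are shown because they carry binding in the spans of clusters named below. Each cluster is named after a gene inside it or after the nearest one, which can lie far away. They were chosen after their values were seen and come from the plus strand of the hg19 (GRCh37) reference. Capitals mark the forkhead letters TGTTTAC or TGTTTGC, the AP-1 letters TGAGTCA, the cyclic AMP response element TGACGTCA, the E-boxes CAGCTG and CAGATG, the homeodomain letters TAATTA and the nuclear factor I letters TTGGCA, each searched on both strands. All 8 windows lie outside annotated exons.
SIPA1L2, kept FOXA2 region: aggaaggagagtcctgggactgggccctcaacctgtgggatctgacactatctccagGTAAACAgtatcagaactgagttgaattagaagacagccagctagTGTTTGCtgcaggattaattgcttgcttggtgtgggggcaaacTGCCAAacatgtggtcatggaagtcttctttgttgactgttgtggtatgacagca
FAF1, lost FOXA2 region: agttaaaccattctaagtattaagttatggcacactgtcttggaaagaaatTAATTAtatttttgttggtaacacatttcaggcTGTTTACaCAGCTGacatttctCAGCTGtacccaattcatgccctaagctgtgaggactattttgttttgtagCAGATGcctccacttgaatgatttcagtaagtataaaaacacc
NKX2-2, kept FOXA2 region: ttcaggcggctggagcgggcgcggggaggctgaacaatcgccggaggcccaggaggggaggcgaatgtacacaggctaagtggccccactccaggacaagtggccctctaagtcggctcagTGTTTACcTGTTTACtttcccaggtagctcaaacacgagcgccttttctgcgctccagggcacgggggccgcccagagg
NKX2-1, kept FOXA2 region: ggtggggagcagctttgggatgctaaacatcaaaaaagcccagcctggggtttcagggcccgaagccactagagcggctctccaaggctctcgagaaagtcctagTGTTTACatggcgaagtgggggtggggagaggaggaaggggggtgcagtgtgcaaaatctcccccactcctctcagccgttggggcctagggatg
near ELF3, lost FOXA2 region: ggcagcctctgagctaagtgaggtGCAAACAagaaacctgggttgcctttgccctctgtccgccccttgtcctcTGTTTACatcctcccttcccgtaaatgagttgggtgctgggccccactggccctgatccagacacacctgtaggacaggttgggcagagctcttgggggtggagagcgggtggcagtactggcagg
near FOXA2, kept FOXA2 region: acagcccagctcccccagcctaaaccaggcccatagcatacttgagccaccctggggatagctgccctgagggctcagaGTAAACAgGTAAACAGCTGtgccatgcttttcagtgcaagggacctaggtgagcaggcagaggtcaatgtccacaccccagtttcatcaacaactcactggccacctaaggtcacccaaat
near VEGFA, kept JUN region: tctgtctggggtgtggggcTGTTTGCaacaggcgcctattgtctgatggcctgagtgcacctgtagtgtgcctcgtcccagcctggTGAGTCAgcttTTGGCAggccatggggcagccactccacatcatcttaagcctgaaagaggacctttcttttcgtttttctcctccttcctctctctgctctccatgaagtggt
near SPSB1, kept JUN region: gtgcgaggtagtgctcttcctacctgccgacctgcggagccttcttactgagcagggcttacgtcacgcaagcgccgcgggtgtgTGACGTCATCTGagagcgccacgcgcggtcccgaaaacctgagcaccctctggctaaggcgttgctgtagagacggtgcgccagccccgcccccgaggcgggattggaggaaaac
The first 6 windows are vehicle FOXA2 regions and the last 2 are siNC JUN regions. The NKX2-2 window, chr20:21499127-21499326, lies between genes and holds a pair of forkhead motifs side by side. The window near FOXA2 itself, chr20:22487955-22488154, also lies between genes and holds a pair of forkhead motifs, the second of which overlaps an E-box. The SIPA1L2 window (chr1:232704003-232704202) and the FAF1 window (chr1:51117290-51117489) are intronic in those genes, and the NKX2-1 window (chr14:36983055-36983254) lies within the body of SFTA3. The window near ELF3, chr1:202015429-202015628, is intergenic with forkhead motifs in both orientations. Of the JUN windows, the one near VEGFA (chr6:43911689-43911888) holds an AP-1 motif and the one near SPSB1 (chr1:9488958-9489157) holds a cyclic AMP response element overlapping an E-box. The JUN region near SPSB1 is centred outside H3K4me2, so it is not among those counted in H3K4me2 for that cluster below. Within 100 bases of the region centre, forkhead letters were present in 43.8% of all vehicle FOXA2 regions and AP-1 letters in 13.8% of all siNC JUN regions, against 13.7% and 5.35% of all NCI-H660 ATAC regions.

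Before the results, 28 of the 500 clusters have to be set apart. They held H3K4me2 regions that overlapped a region in at least 17 of the 22 lists, whatever the factor, treatment or cell line, and are called recurrent clusters below. They included the 4 largest of all, chr16:46386287-46435522, chr2:92269123-92325953, chr10:42356107-42408540 and chr4:49093619-49156963, as well as 6 of the first 10 and 16 of the first 100. Of these 28 clusters, 16 lay within 1 Mb of an assembly gap of at least 1 Mb, compared with 6 of the other 472 (1.27%). The recurrent regions took 5.25% of the H3K4me2 width of the 500 clusters and 0.491% of the other distal width. The 28 clusters held 206 of the 460 vehicle FOXA2 regions and 174 of the 681 siNC JUN regions centred in the H3K4me2 regions of all 500. The cluster at rank 1 held 21 FOXA2 and 13 JUN regions, and FOXA2 regions covered 76.7% of its H3K4me2 width. Ranks 2, 3 and 4 held 18, 19 and 21 FOXA2 regions, and rank 17 on chromosome X held 14. These 5 were also among the clusters with the most JUN regions. The 22 lists include the FOXA2, JUN and ATAC lists that are counted below, so leaving out these clusters removes regions of those lists, and regions that were kept, by construction. A second definition therefore used the 16 PC3 and LNCaP lists alone, and left out clusters with a region overlapped in at least 12 of them, 27 of the 500 and 191 others. It was added after seeing the data. Results are given with and without the 28 clusters, and the named clusters after this paragraph are outside them unless stated.

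**Figure D1:**
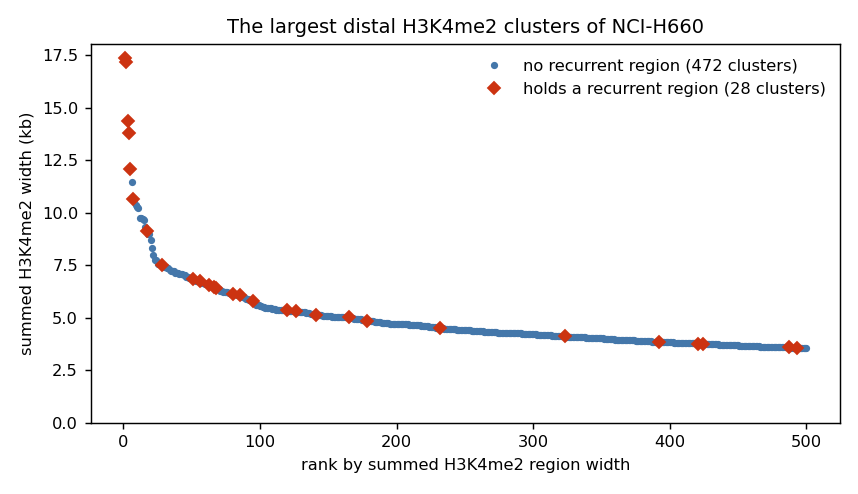
Summed H3K4me2 width in kb (vertical axis) of the 500 largest clusters against rank (horizontal axis), with 1 point per cluster. Diamonds mark the 28 clusters with a recurrent region, which fill ranks 1 to 5 and thin out down the list.

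The clusters were long series of separate regions rather than single broad ones. Summed width ran from 3562 to 17356 bp with a median of 4414 bp, over spans of 4246 to 82766 bp (median 28511 bp) that held 2 to 25 regions (median 5.5). In contrast, 20298 of all distal clusters (67.9%) were 1 region. The choice of 500 fell on no break in the ranking. The last 3 inside, near TRIM69, CIBAR1 and C1orf174, had 3567, 3564 and 3562 bp, and the first 3 outside, at FAAP20, MVB12B and near TRPM1, had 3557, 3554 and 3554 bp. The next 500 clusters (ranks 501 to 1000) had 2881 to 3557 bp and are used below as the closest comparison.

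The clusters were rich in noncoding gene starts and in GC, features that the selection did not use. Of the 2752 H3K4me2 regions in the 472 clusters, 392 (14.2%; 12.99 to 15.6) lay within 2 kb of the start of a long noncoding RNA, compared with 8.50% of the other distal regions, a difference of 5.74 percentage points (4.46 to 7.12). The next 500 clusters had the same share, 14.2%. Median GC content was 52.2% in these regions, 50.6% in the next clusters and 49.1% in the other distal regions. Chromosome 1 carried 76 of the 500 clusters (15.2%), compared with 10.05% of the other distal clusters.

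The largest clusters outside the recurrent set lay at a mixed group of loci, and most held few FOXA2 or JUN regions. Counts in this paragraph are of regions centred in H3K4me2, unless the span is named. The cluster at rank 6, near FCGR2A (an Fc receptor gene), spanned chr1:161409535-161442166 with 11454 bp of H3K4me2 in 8 regions and had no FOXA2 and no JUN region. Rank 8, inside SH3RF3, was the longest of all with a span of 82766 bp and held 1 FOXA2 and 2 JUN regions. Ranks 9 and 10, inside AHDC1 and CMTM7, held no FOXA2 region and 3 and 2 JUN regions. The span of rank 10 held 1 FOXA2 and 4 JUN regions. Rank 11, near the kinase gene SIK1, held 2 FOXA2 and 3 JUN regions, all of which were kept under ORY-1001 and under siFOXA2. Its span held 3 FOXA2 and 5 JUN regions, so these kept counts do not cover all of them. Rank 12, whose nearest protein-coding gene was the Wnt ligand gene WNT7B, lay over MIRLET7BHG, the noncoding host gene of let-7 microRNAs, and had neither factor. Ranks 13 and 14, near ANXA2R and C1orf159, had no FOXA2 and 1 JUN region each. Of the recurrent clusters among the 15 largest, 2 were so by 1 region only, namely rank 5, near PLS3 on chromosome X and over the noncoding genes DANT1 and DANT2, and rank 7, inside TPD52. Rank 5 held 1 FOXA2 region and rank 7 held 3.

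A few genes of transcription factors that specify neuroendocrine and endoderm lineages had a cluster. In all, 300 of 20136 protein-coding genes (1.49%) had a body that overlapped a cluster span, 2.45% lay inside or nearest to a cluster, and 282 clusters (56.4%) contained at least part of such a gene. The other 218 clusters had their nearest protein-coding start a median of 45229.5 bp away. Of 30 neuroendocrine transcription factor genes, 3 lay inside a cluster, namely INSM1, NKX2-1 and NKX2-2, and FOXA2 and SOX2 were nearest to one. None of the 30 neuroendocrine secretory and surface genes, such as CHGA and SYP, lay inside or nearest to a cluster, although all 10 marker genes checked above carried H3K4me2. None of the 26 basal and mesenchymal genes did either, and of the 22 luminal and androgen receptor genes the pioneer factor gene FOXA1 was the one inside. Of the 18 gut and liver lineage factor genes, FOXA1 and the nuclear receptor gene NR5A2 lay inside a cluster, and FOXA2 and the epithelial ETS factor gene ELF3 were nearest to one. These lists were chosen with earlier results known and are small, so the counts are a description. With 2.45% of all genes inside or nearest, 0 of 30 is close to the share of all genes, and no difference between lists was tested. There were 14 genes with more than 1 cluster, led by RPTOR (the mTORC1 scaffold protein), SIPA1L3, TRAPPC9 and DLGAP1 with 3 each.

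The lineage factor clusters differed in what they held. The NKX2-2 cluster (rank 107, 5471 bp) had 3 vehicle FOXA2 regions in its span. The strongest of them had a score of 2260 and is the site printed above, in open chromatin. It was centred just outside an H3K4me2 region whose edge it touched. This region was kept under ORY-1001, as was the second (score 267), and the third (score 108) was lost. NKX2-2 is a homeodomain factor of neural and endocrine development. The cluster over NKX2-1, the homeodomain factor of lung, thyroid and ventral forebrain, was at rank 78 (6197 bp). It held 3 FOXA2 regions in its span, none centred in distal H3K4me2, with scores of 352, 98 and 92, and all 3 were kept. The cluster near SOX2 (rank 97), a factor of neural and stem cells, held 2 FOXA2 regions in its span, neither centred in H3K4me2. The one with a score of 144 was kept and the one of 43 was lost. The cluster over INSM1, a zinc finger factor of neuroendocrine cells, was at rank 473 and held 1 FOXA2 region in its span in vehicle and none under ORY-1001.

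The cluster near FOXA2 (rank 426, 71013 bp from its start) held 2 FOXA2 and 2 JUN regions in H3K4me2, and all 4 were kept. The FOXA1 cluster (rank 76) had no FOXA2 region in its span in vehicle and 1 under ORY-1001. The cluster near ELF3 (rank 42, 23491 bp from its start) had 2 FOXA2 regions, with scores of 233 and 172, that were both lost. Its 2 JUN regions were both kept. The NR5A2 cluster (rank 275) kept all 3 FOXA2 regions of its span, with scores of 145, 83 and 49. Low-scoring regions were therefore kept in one cluster while higher-scoring ones were lost in another.

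Other pathway genes each gave a few clusters. Of 20 Notch pathway genes, the coactivator gene MAML3 held 2 clusters (ranks 103 and 169), and the target genes HES1 and HES5 were nearest to ranks 414 and 476. HES1 had 2 FOXA2 regions, 1 kept and 1 lost. Of 15 LSD1 and CoREST complex genes, GSE1, which encodes a subunit associated with that complex, held ranks 31 and 405, and its single FOXA2 region in H3K4me2 was lost. Of 35 axon guidance and neuronal adhesion genes, the receptor genes PLXNA2 and EPHB1 and the ligand gene NTN1 lay inside clusters. Of 12 AP-1 subunit genes, JUN was nearest to rank 164, which held 1 JUN region under siNC and 4 under siFOXA2. None of the 15 housekeeping genes lay inside a cluster, and YWHAZ was nearest to rank 206.

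Accessible chromatin covered most of the H3K4me2 width, to nearly the same share as in other distal H3K4me2. ATAC regions covered a median of 70.5% of the H3K4me2 width of the 472 clusters, from 19.9 to 96.1%, and 470 of them had at least 1 ATAC region centred in H3K4me2. The whole H3K4me2 width was covered to 68.7% there and to 68.4% in the other distal regions. The number of ATAC regions per 100 kb of H3K4me2 width was nevertheless lower, at 80.8 against 101, a log2 ratio of -0.32 (-0.39 to -0.25), and the median ATAC region was 787.5 bp wide against 678 bp. Against the next clusters, with a density of 83.5 and a median ATAC width of 793 bp, the log2 ratio was -0.05 (-0.15 to 0.06). The rule chose the clusters on the width that divides these counts, so a lower number per width can follow from the choice. Its part was not tested. With the recurrent clusters the density was 83.6 and the log2 ratio to other distal H3K4me2 -0.28 (-0.34 to -0.21). Wider H3K4me2 regions are more likely to overlap anything. Of the H3K4me2 regions, 91.1% overlapped ATAC, compared with 91.0% of other distal regions at the same widths.

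The FOXA2 density of the largest clusters relative to other distal H3K4me2 depended on the recurrent clusters, all 28 of which held FOXA2. Over all 500 clusters, 460 vehicle FOXA2 regions were centred in H3K4me2, or 18.6 per 100 kb, compared with 16.8 per 100 kb elsewhere (log2 ratio 0.14; 0.01 to 0.28). Over the 472 clusters the count was 254 regions, or 11.2 per 100 kb against 16.02, and the log2 ratio was -0.52 (-0.70 to -0.34). Against the next 500 clusters, treated alike, it was -0.27 (-0.54 to -0.01). In the 28 recurrent clusters FOXA2 reached 100.02 regions per 100 kb, so part of the lower density follows from leaving them out. Under the definition from PC3 and LNCaP lists alone the log2 ratio was -0.49 (-0.67 to -0.31). The way of counting mattered too. With all 500 clusters the ratio was -0.68 over whole spans. A span includes the joined gaps, and the 67.9% of all distal clusters that were 1 region had none. The ratio over spans is therefore lower partly by construction. Counted by an overlap of at least 1 bp, the ratio was -0.010 (-0.13 to 0.11). FOXA2 regions overlapped 13.4% of the H3K4me2 regions of the 472 clusters, compared with 16.6% of others at the same widths, and covered 3.73% of the width against 5.11%. The same order was found from the accessible side. Of 1836 ATAC regions in the clusters, 15.7% (14.1 to 17.4) overlapped FOXA2, compared with 20.1% of ATAC regions of the same scores in other distal H3K4me2.

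FOXA2 was centred in the H3K4me2 of a minority of clusters, lay in the span of a majority, and was rarely there in number. Of the 472 clusters, 183 (38.8%; 34.5 to 43.2) had a FOXA2 region centred in H3K4me2 and 252 (53.4%) had one in their span. In the next clusters, treated alike, these shares were 34.8 and 51.6%. Among the 472, 8 clusters had 3 or more FOXA2 regions centred in H3K4me2. The 5 described were chosen after values were seen, by number and then width, since the fixed rule returned recurrent clusters. SIPA1L2 (rank 50) had 5 regions, with scores of 120, 95, 60, 57 and 56. FAF1 (rank 24) had 4, with scores of 485, 202, 70 and 22. The clusters nearest to ZMIZ1 (rank 39, 137276 bp from its start), inside FNDC3B (rank 261) and nearest to ANKRD46 (rank 307, 60710 bp) had 3 each. These 5 clusters kept 3 of 5, 2 of 4, 1 of 3, 1 of 3 and 2 of 3 regions under ORY-1001, and each of the 8 kept part of its regions, 14 kept and 13 lost in all.

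JUN regions did not differ clearly in density between the largest clusters and other distal H3K4me2. Over all 500 there were 681 siNC JUN regions, or 27.5 per 100 kb against 24.2 (log2 ratio 0.18; 0.07 to 0.30). Over the 472 there were 507, or 22.3 per 100 kb against 23.5 (-0.08; -0.21 to 0.05). JUN regions overlapped 24.7% of the H3K4me2 regions, compared with 24.3% of others at the same widths, and 28.8% of the ATAC regions, compared with 27.7% at the same ATAC scores. JUN was spread over more clusters than FOXA2, with 311 of 472 (65.9%; 61.5 to 70.0) having a JUN region in H3K4me2 and 376 (79.7%) in the span. The most were in the cluster nearest to SPSB1, a SOCS box protein gene (rank 38, 50469 bp from its start). It had 5 JUN regions in H3K4me2, 7 in the span and no FOXA2. TTLL2 and UNC93A (rank 34), RAPGEF1 (rank 61), UBE2G2 (rank 88) and the cluster nearest to VEGFA (rank 135) had 4 each in H3K4me2. These were the widest of the clusters with 4. VEGFA, an angiogenic growth factor gene, starts 126333 bp from its cluster.

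**Figure D2:**
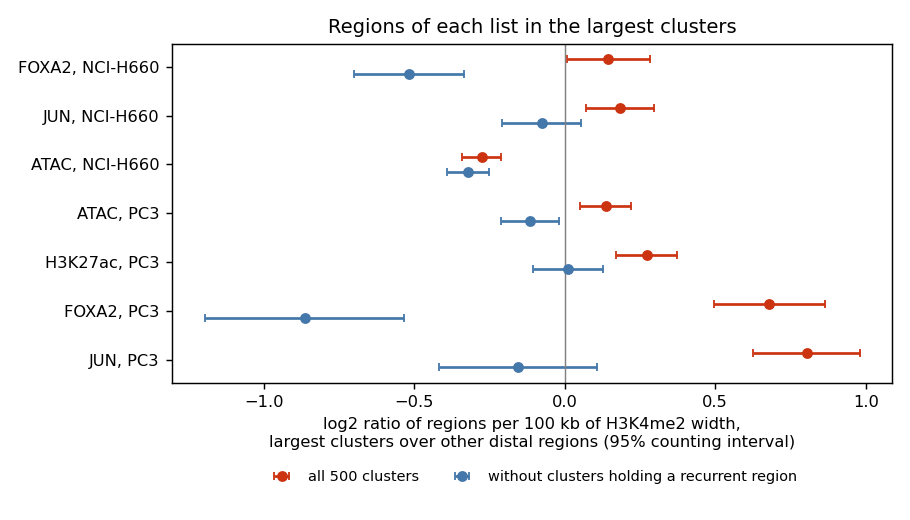
Log2 ratio (horizontal axis) of the number of listed regions per 100 kb of H3K4me2 width in the largest clusters over that in other distal H3K4me2, for 7 lists, with 95% counting intervals. The NCI-H660 FOXA2 point moves from 0.14 with all 500 clusters to -0.52 without the clusters holding a recurrent region, and the NCI-H660 ATAC points stay below 0.

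Both factors were also found in the gaps between H3K4me2 regions. Of 417 FOXA2 regions in the spans of the 472 clusters, 254 (60.9%) were centred in distal H3K4me2, 98 (23.5%) touched its edge and 65 (15.6%) did not touch it. Of 718 JUN regions, 70.6% were centred in it, 17.8% touched the edge and 11.3% did not touch it. FOXA2 regions that touched an H3K4me2 region but were centred outside had a higher median score (218) than those centred inside (137.5). In the other distal regions these medians were 166 and 147.

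**Figure D3:**
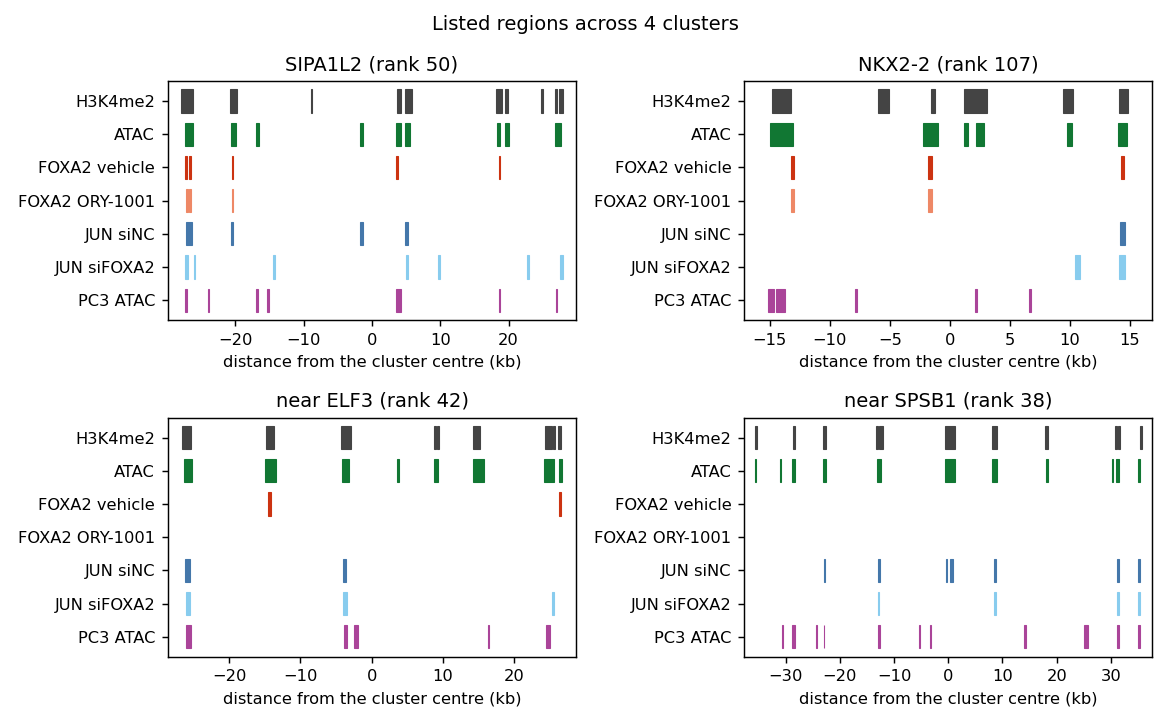
Listed regions across 4 clusters, drawn to scale as distance in kb from the cluster centre (horizontal axis), with 1 track per list. The clusters at SIPA1L2, NKX2-2 and near ELF3 keep 3 of 5, 2 of 3 and 0 of 2 FOXA2 regions under ORY-1001, and the cluster near SPSB1 has JUN regions and no FOXA2 region.

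Motif content of the factor regions was close to that elsewhere. Forkhead letters were within 100 bp of the centre in 116 of the 254 FOXA2 regions (45.7%), compared with 49.1% of FOXA2 regions in other distal H3K4me2, a difference of -3.46 points (-9.66 to 2.86). AP-1 letters were found in 81 of the 507 JUN regions (15.98%) and in 15.5% of the others (0.471 points; -2.60 to 4.02). The accessible regions as a whole did differ. Forkhead letters were found in 10.7% of the 1836 ATAC regions of the clusters and in 15.4% of those in other distal H3K4me2 (-4.62 points; -6.03 to -3.07). AP-1 letters in the same ATAC regions stood at 5.23 and 5.08%. GC content of the H3K4me2 regions was higher in the clusters, where the forkhead share was lower, and its part was not tested.

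The question for ORY-1001 was how much FOXA2 binding in the clusters was still listed after 4 h of LSD1 inhibition. A vehicle region counts as kept if it overlaps a region of the ORY-1001 list by at least 1 bp, and otherwise as lost. Over the whole FOXA2 list 31.6% of vehicle regions were lost and 29.1% of ORY-1001 regions were new. Over all 500 clusters, 365 of 460 FOXA2 regions were kept (79.3%; 75.4 to 82.8), compared with 72.5% in other distal H3K4me2, or 6.81 points more (2.68 to 10.5). The 28 recurrent clusters kept 203 of 206 (98.5%). Both FOXA2 lists are among the 22 that define recurrence, so keeping there is part of the definition and is no finding. Over the 472 clusters 162 of 254 were kept (63.8%; 57.7 to 69.4), compared with 71.2%, or -7.37 points (-13.6 to -1.54). The direction therefore turned with the recurrent clusters, and was -6.21 points (-12.3 to -0.499) under the definition from PC3 and LNCaP lists alone. Standardized to the same scores the difference was -5.66 points (-11.7 to 0.37), an interval that includes 0, and -4.95 points (-10.9 to 0.976) under that other definition. Against the next 500 clusters it was -5.74 points (-14.2 to 2.90).

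The FOXA2 regions of the 472 clusters fell from 254 to 209, a log2 ratio of -0.28 (-0.55 to -0.02), compared with -0.11 (-0.17 to -0.04) in other distal H3K4me2. These intervals overlap. Of the 209, 45 (21.5%) were new, against 23.8% elsewhere. Of the 183 clusters with vehicle FOXA2, 101 kept all of it, 54 lost all and 28 kept part, and another 28 clusters had FOXA2 under ORY-1001 only. Loss went with low score. The kept share rose from 15.4% of 26 regions in the lowest score decile of the vehicle list to 100% of 21 regions in the highest.

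There were 10 clusters that lost 2 FOXA2 regions, the most in any of the 472. Of these, 5 kept part of their FOXA2 and 5 kept none, the latter named here because the rule breaks ties by the fewest kept. They were TTLL2 and UNC93A (rank 34), RPTOR (rank 37), near ELF3 (rank 42), rank 265 at AL592284.1, and the cluster near BARX2 (rank 378), a homeodomain factor gene. In the motif search, AP-1 letters were present in 13 of 92 lost FOXA2 regions (14.1%) and in 7 of 162 kept ones (4.32%), a difference for kept minus lost of -9.81 points (-18.6 to -2.67). In other distal H3K4me2 the shares were 6.28 and 5.29% (-0.991 points; -2.65 to 0.495). Forkhead letters stood at 48.8% of kept and 40.2% of lost regions (8.55 points; -4.17 to 20.7).

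JUN regions of the clusters were kept under siFOXA2 more often than JUN regions elsewhere. Over the whole JUN list 52.0% of siNC regions were lost and 85.2% of siFOXA2 regions were new, the latter list being far longer. The level of FOXA2 after siFOXA2 was not analysed here. Over all 500 clusters, 425 of 681 JUN regions were kept (62.4%), compared with 48.3% in other distal H3K4me2, or 14.1 points more (10.2 to 17.9). Over the 472 it was 292 of 507 (57.6%; 53.3 to 61.8) against 47.6%, or 9.99 points (5.47 to 14.4), and 6.75 points (2.27 to 11.2) at the same scores. Both JUN lists are among the 22 as well, and under the definition from PC3 and LNCaP lists alone these were 10.1 points (5.61 to 14.5) and 6.84 points (2.40 to 11.3). Against the next 500 clusters the difference was 7.32 points (0.651 to 13.9). By score decile of the siNC list, the kept share was higher than elsewhere in deciles 4 and 6 to 10 and lower in the other 4. In the highest score decile 87 of 94 JUN regions were kept (92.6%), compared with 74.4% elsewhere, and in the seventh 70.4% compared with 41.9%. In the lowest decile it was 15.8% of 19 regions against 35.2%.

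**Figure D4:**
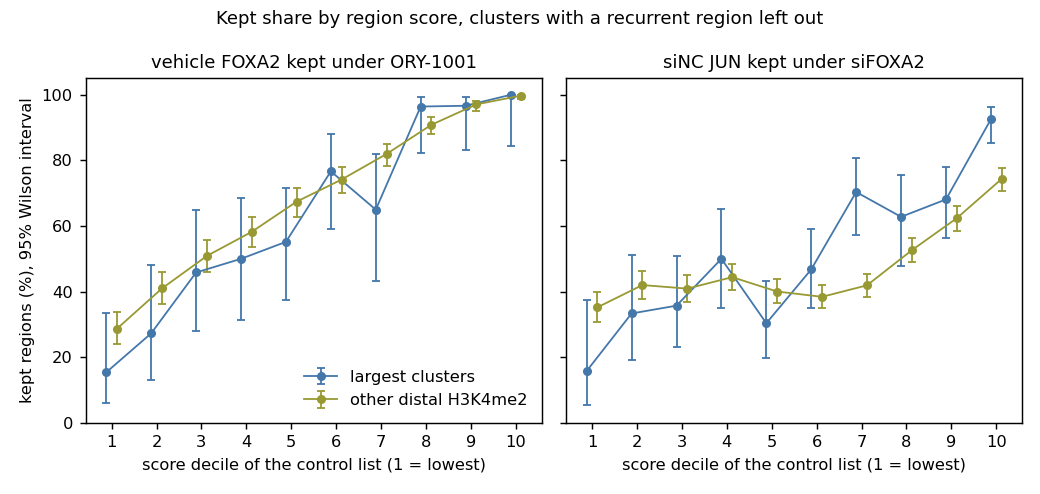
Kept share in percent (vertical axis) by score decile of the control list (horizontal axis) for vehicle FOXA2 under ORY-1001 (left) and siNC JUN under siFOXA2 (right), with 95% Wilson intervals, recurrent clusters left out. FOXA2 points of the largest clusters lie below those of other distal H3K4me2 in deciles 1 to 5, 7 and 9, with 15.4% against 28.7% in the lowest and 65.0% against 82.0% in the seventh, and JUN points of the largest clusters reach 92.6% in the top decile against 74.4%.

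New regions made up a smaller share of siFOXA2 JUN regions in the clusters than elsewhere, and most new regions lay outside distal H3K4me2. Of 510 siFOXA2 JUN regions in the 472 clusters, 216 (42.4%) were new, compared with 55.8% in other distal H3K4me2, a difference of -13.5 points (-17.9 to -9.01). Against the next clusters (49.4%) it was -7.00 points (-13.5 to -0.437). Outside distal H3K4me2 the share was 90.0%. Among the 472, 311 clusters had siNC JUN, of which 139 kept all of it, 94 lost all and 78 kept part. Another 58 had JUN under siFOXA2 only. JUN regions that overlapped a vehicle FOXA2 region were kept less often (56 of 119, 47.1%) than those that did not (236 of 388, 60.8%), a difference of -13.8 points (-23.7 to -3.57). The same comparison in other distal H3K4me2 gave 43.2 and 49.7% (-6.50 points; -9.10 to -3.87), and whether the sets of clusters differ in this was not tested. In the clusters the FOXA2-bound JUN regions had the lower median score, 94 against 123, and the part of score was not tested. AP-1 letters were found in 63 of 292 kept JUN regions (21.6%) and 18 of 215 lost ones (8.37%), or 13.2 points (6.98 to 19.1). Elsewhere the shares were 18.0 and 13.2% (4.75 points; 2.96 to 6.55).

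Named clusters showed both outcomes. Outside the recurrent set, 5 clusters lost 3 or more JUN regions, and 3 of them kept none. FOXP1, which encodes a forkhead repressor (rank 174), lost all 4 of its JUN regions, with scores of 108, 60, 45 and 21, and FAM178B (rank 69) lost all 3. The recurrent clusters at ranks 1, 141 and 3 lost 6, 4 and 4. The cluster near SPSB1 kept 2 of the 5 in H3K4me2, RAPGEF1 3 of 4, and UBE2G2 and the cluster near VEGFA 2 of 4 each. In the cluster near VEGFA the kept regions included the printed AP-1 site, whose score of 1029 was the highest of its 6 in the span. The PLXNA2 cluster (rank 468) lost both of its JUN regions.

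Most NCI-H660 clusters were partly accessible in PC3, and few were accessible over most of their width. PC3 ATAC regions covered a median of 14.8% of the H3K4me2 width of the 472 clusters (0 to 70.2%), compared with the 70.5% covered by NCI-H660 ATAC regions. PC3 ATAC regions were listed in greater number (210960 against 99959). Low PC3 cover was not particular to the largest clusters. Of the summed H3K4me2 width, PC3 ATAC covered 18.6% in the 472, 18.8% in the next clusters and 17.4% in other distal H3K4me2, all without recurrent clusters. The 28 recurrent clusters were covered to a median of 62.8%. PC3 H3K27ac regions covered a median of 17.9% of the 472. PC3 ATAC covered none of the width in 53 clusters (11.2%; 8.69 to 14.4) and at least 50% in 24 (5.08%). In the next 500 clusters 18.9% had none, 7.70 points more than in the largest (3.17 to 12.2). The larger clusters offer more width to overlap. In 46 of the 472 (9.75%) neither PC3 ATAC nor PC3 H3K27ac covered any of the width.

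Clusters with FOXA2 in NCI-H660 were less accessible in PC3 than those without it. Of 252 clusters with a FOXA2 region in their span, 38 (15.1%) had no PC3 ATAC in H3K4me2, compared with 15 of 220 without FOXA2 (6.82%), a difference of 8.26 points (2.59 to 13.9). For PC3 H3K27ac these shares were 37.3 and 23.2% (14.1 points; 5.81 to 22.1). In the next 500 clusters the ATAC shares were 23.1 and 14.5% (8.64 points; 1.67 to 15.5). By class, the median PC3 ATAC cover was 13.2% in the 223 clusters with FOXA2 and JUN, 10.4% in the 29 with FOXA2 without JUN, 19.6% in the 153 with JUN without FOXA2 and 25.5% in the 67 with neither. Clusters with both factors had the longest median span, 31274 bp.

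**Figure D5:**
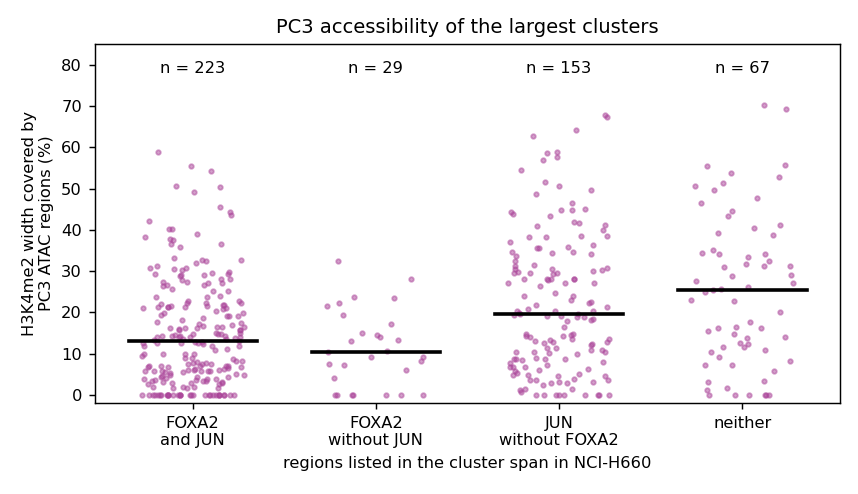
Percent of H3K4me2 width covered by PC3 ATAC regions (vertical axis) in each of the 472 clusters without a recurrent region, by the factors listed in the cluster span in NCI-H660 (horizontal axis). Points are clusters, bars are medians, and the medians run from 10.4% with FOXA2 alone to 25.5% with neither factor.

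There were 13 clusters with 2 or more FOXA2 regions and no PC3 ATAC in H3K4me2, of which 8 kept all FOXA2 and 5 kept part. The 5 named are first by number and then width. CDKAL1 (rank 419) held 3 FOXA2 regions, and KCND3, a potassium channel gene (rank 117), the cluster near XCL2 (rank 143), CLSTN2, a synaptic adhesion gene (rank 172), and TRABD2B (rank 176) held 2 each. CDKAL1 kept 2 of its 3 under ORY-1001 and the other 4 clusters kept both. Both EPHB1 clusters, the cluster near SOX2 and MAML3 at rank 103 also had no PC3 ATAC cover, and NKX2-1 had 2.71 and 3.09% in its 2 clusters. At the other end were clusters near GJA3 (rank 483), with 70.2% cover, and at NTN1 (rank 449) with 58.7%, at the T-box factor gene TBX2 (rank 228) with 53.8% and at WNT10A (rank 364) with 52.7%. These 4 were chosen after their values were seen. Of the 24 clusters with at least 50% cover, 4 (16.7%) had a vehicle FOXA2 region in H3K4me2, compared with 38.8% of all 472. The FOXA1 cluster was covered to 45.2% by PC3 ATAC and to 73.2% by PC3 H3K27ac.

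The density of PC3 factors in the NCI-H660 clusters also turned with the recurrent clusters. PC3 FOXA2 regions stood at 3.35 per 100 kb of H3K4me2 width in the 472 clusters against 6.09 in other distal H3K4me2, a log2 ratio of -0.86 (-1.20 to -0.53), and of 0.68 (0.50 to 0.86) with the recurrent clusters included. In the 2 further PC3 FOXA2 lists the ratios were -0.32 (-0.50 to -0.13) and -0.35 (-0.55 to -0.15) without and 0.26 (0.12 to 0.41) and 0.36 (0.21 to 0.51) with them, the same signs at smaller sizes. For PC3 JUN the ratio was -0.15 (-0.42 to 0.11) without and 0.80 (0.63 to 0.98) with them. PC3 ATAC density moved in the same way, from a log2 ratio of -0.12 (-0.21 to -0.02) without to 0.14 (0.05 to 0.22) with them. The 500 largest PC3 H3K27ac clusters, built by the same rule from another mark, overlapped 47 of the 500 NCI-H660 clusters (9.4%), and 48 of the PC3 clusters (9.6%) were overlapped in turn. Without the recurrent clusters it was 36 of 472 (7.63%) and 37 of 500 (7.4%).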

How the data were processed

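ChIP-seq and ATAC-seq regions of 22 samples were analysed as deposited, each a list of hg19 intervals with a whole-number score. According to the submitters' processing notes and the study's methods, the authors checked reads with FastQC 0.11.9, aligned them with BWA 0.7.17-r1188, processed them with SAMtools 1.9 and called regions with MACS2 2.1.4. The MACS2 settings, control libraries, pooling of libraries and any ATAC read shift are not given in the sources used here. The deposited score was read as a caller significance with a lowest value of 13 in the lists used, and is not comparable between libraries of unknown depth. Sample groups follow the labels. Region names in the deposited lists carry a processing folder, which was the same for both lists of each contrast and differed between the factor, H3K4me2 and ATAC lists, so differences between assays and processing folders cannot be told apart.

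Clusters were built and counted with Python 3.11.15, numpy 2.4.6, pandas 2.3.3 and pysam 0.24.0, with gene starts from GENCODE v44 lifted to GRCh37. Content was counted by region centre. A region was kept if it overlapped the other list by at least 1 bp. Shares have Wilson intervals, differences of shares Newcombe intervals, and density ratios counting intervals, all at 95%. Differences at the same widths or scores were standardized over 10 strata. Named clusters were the 15 largest, the 5 with the most FOXA2, JUN, FOXA2 lost, JUN lost, and FOXA2 without PC3 ATAC, those 3 inside and 3 outside the threshold, and every gene of the lists that had a cluster, except 2 clusters that are not reported here. Other names were chosen after values were seen. The members and lists were chosen with earlier results of these data known. Scripts were tested on simulated data.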

Additional observations from a re-analysis of the deposited data

How the results depend on the processing

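No paired analysis was possible because each condition compared had 1 list, which also left no replicate to leave out (the 2 further PC3 FOXA2 lists enter no treated contrast here). Of 87 recalculations over 21 settings, 40 moved by less than the counting interval. Another 26 moved further in the same direction or closer to 0, and 21 changed sign, called reversed below. The interval of a reversed value includes 0 for FOXA2 density at an overlap of 1 bp (-0.13 to 0.11). It also does for JUN density without recurrent regions (-0.22 to 0.04), without their clusters (-0.21 to 0.05) and by the second definition (-0.19 to 0.07). The same holds for the kept difference of FOXA2 standardized by score, under either definition. Leaving out the clusters with a recurrent region, under either definition, and the other PC3 FOXA2 lists were chosen after seeing the data. The log2 density ratio of FOXA2 was 0.14 as reported and reversed to -0.68 over whole spans, -0.010 at an overlap of 1 bp, -0.53 without recurrent regions, -0.52 without the clusters that hold them and -0.49 without the clusters recurrent over PC3 and LNCaP lists, and was 0.30 with gaps of 5 kb and 0.39 for the first 250 clusters. That of JUN (0.18) reversed to -0.53 over whole spans, -0.090 without recurrent regions, -0.076 without their clusters and -0.062 by the second definition, and was 0.32 for the first 250 and 0.35 at scores of at least 50. Per width, which the choice of clusters favoured, that of NCI-H660 ATAC stayed negative throughout. It was -0.53 at gaps of 5 kb, -0.35 ranked by width times score and -0.90 over spans. That of PC3 ATAC (0.14) reversed to -0.14 over spans, -0.13 without recurrent regions, -0.12 without their clusters and -0.11 by the second definition, and was 0.25 at gaps of 5 kb, 0.23 for the first 250, 0.047 for the first 1000 and 0.53 ranked by width times score. The kept difference of FOXA2 (6.81 points) reversed to -8.04 without recurrent regions, -7.37 without their clusters and -5.66 when also standardized by score (-6.21 and -4.95 by the second definition), and was 14.9 at gaps of 5 kb, 0.329 at 20 kb, 13.7 for the first 250 and 11.7 by width times score. That of JUN (14.1 points) stayed positive, at 20.7 with gaps of 5 kb, 18.8 for the first 250, 21.4 by width times score, 10.1 without recurrent regions, 8.95 standardized by score, 9.99 without their clusters and 6.75 with both (10.1 and 6.84 by the second definition). The PC3 FOXA2 ratio (0.68) was 0.26 and 0.36 in the other lists and reversed without recurrent clusters to -0.86, -0.32 and -0.35. Ratios over whole spans are lower partly by construction, since spans include the joined gaps. Beyond the recurrent clusters and the settings' own construction, the cause was not tested. Depth, which is unknown, limits every count of lost or new regions.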
